A study of Oryza sativa Indica Group with 18 samples.

Results

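BBD1 (LOC4326932) is the rice gene of a bifunctional nuclease, and the array carried 1 probe set for it. The probe set was taken because the annotation ties it to this gene alone, and BBD1 was selected on its measured values: its level was lower at 3 h of drought than in controls and partly returned at 6 h in both cultivars. It is 1 of 22436 probe sets tied to exactly 1 gene, of 57381 on the array. The samples were whole seedlings, 7 days old, of the indica rice cultivars IR20 and Dagad deshi, with 3 arrays for each cultivar as control, after 3 h of drought and after 6 h of drought, 18 arrays in all. Seedlings were raised in liquid medium, and drought was given by lifting them onto filter paper under light. Control seedlings stayed in medium for 6 h, so no control was matched to the 3 h seedlings, and at that time drought and hours of handling cannot be told apart. The series title speaks of a tolerant and a susceptible cultivar, and the labels name no transgene or mutation.

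Bifunctional nucleases of the BBD family cut both RNA and DNA and share a domain that is conserved from bacteria to plants. Plant members have been described in a wild rice, Oryza minuta, and in Arabidopsis. In Arabidopsis, AtBBD1 takes part in basal defence through callose, a glucan laid down in cell walls, in a path that runs through abscisic acid (ABA). ABA is the hormone that plants make when water is short. These roles are known from those species, and what follows gives levels of the rice gene's RNA only.

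Intensities were read on a linear scale, and log2 values below are log2 of the intensity plus 16, on which the lowest possible value is 4. The median intensity of an array was 7.13 to 8.20 and its upper quartile 195.4 to 223.2. The number of arrays limits the precision, and the labels call the replicates biological without saying whether they came from separate cultures, so p-values measure the spread between these arrays, which may be technical. No scan date or slide was given, so batches could not be looked for. The labels were checked with 5 dehydrin and LEA genes, which rise when cells lose water. All 5 were called higher at 3 h and at 6 h in both cultivars, where 14.9% of probe sets were called higher in IR20 at 3 h and 23.6% in Dagad deshi. At 6 h, 8174 of the 40094 probe sets tested were called higher in IR20 and 9914 in Dagad deshi. Mean log2 levels of the 5 in controls were 7.89 to 9.77 in IR20 and 5.45 to 6.22 in Dagad deshi.

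In IR20 controls the BBD1 probe set read 7243, 6755 and 8119, and at 3 h of drought 670, 585 and 602. At 6 h the IR20 arrays read 1390, 1375 and 1358. All 3 h arrays lay below all 6 h arrays, and all 6 h arrays lay below all controls. In Dagad deshi controls the readings were 3771, 5689 and 5279, and at 3 h they were 27.9, 41.7 and 34.5. At 6 h the Dagad deshi arrays read 999, 848 and 742. The order of the times was the same as in IR20, again with no overlap, and the 3 h values of Dagad deshi were far below every other array of the series.

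On the log2 scale IR20 controls averaged 12.85 ± 0.13, IR20 seedlings at 3 h 9.31 ± 0.10 and those at 6 h 10.44 ± 0.016 (SD, n = 3 each). Dagad deshi controls averaged 12.25 ± 0.31, the 3 h seedlings 5.66 ± 0.20 and the 6 h seedlings 9.77 ± 0.21 (SD, n = 3 each). Put in order, the groups ran from IR20 control through Dagad deshi control, IR20 6 h, Dagad deshi 6 h and IR20 3 h down to Dagad deshi 3 h. No neighbours in this order overlapped. The narrowest step was that of Dagad deshi 6 h over IR20 3 h, 0.46 on the log2 scale, between a lowest reading of 742 and a highest of 670. The spread of BBD1 between replicates was wider than the median probe set's in 5 of 6 groups as given by their SDs, and in Dagad deshi at 3 h its SD exceeded that of 92.5% of probe sets. In IR20 at 6 h only 31.9% of probe sets had a smaller SD than BBD1.

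**Figure D1:**
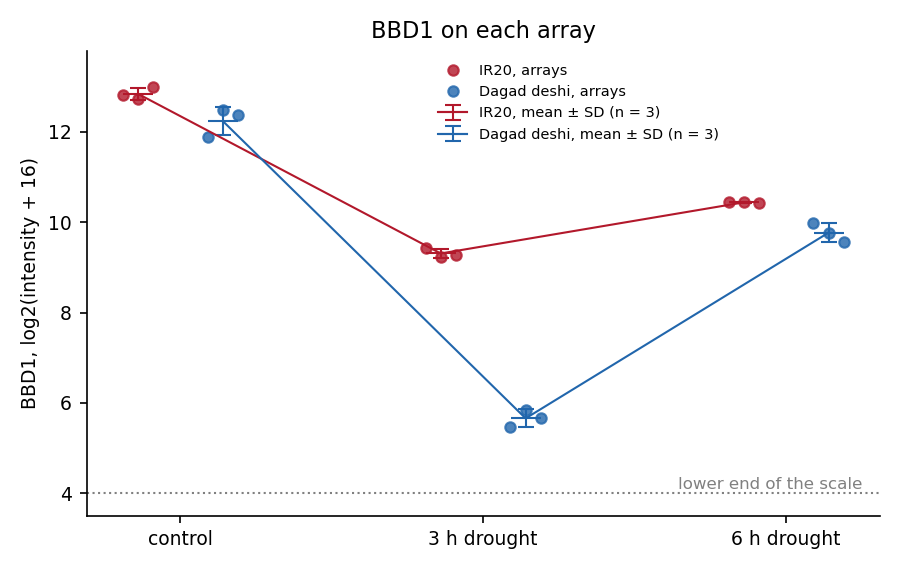
BBD1 level, log2 of the intensity plus 16, on each of the 18 arrays (points) with the mean and SD of each group of 3 (bars), IR20 in red and Dagad deshi in blue, at control, 3 h and 6 h of drought. The 3 Dagad deshi arrays at 3 h, at 27.9 to 41.7 in intensity, stand far below the IR20 arrays of that time, at 585 to 670.

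BBD1 was among the brighter probe sets of the unstressed seedling. Its reading lay at the 98.2 to 98.5 percentile of an array in IR20 controls and at the 96.9 to 98.0 percentile in Dagad deshi controls. At 3 h it stood at the 83.9 to 85.3 percentile in IR20 and at the 62.3 to 64.6 percentile in Dagad deshi, so the Dagad deshi readings were low but still above the array median. At 6 h it was back at the 91.1 to 91.2 percentile in IR20 and the 86.2 to 88.4 percentile in Dagad deshi.

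The changes over time chose the gene and are given as a description, with no test. At 3 h the mean intensity was 8.40% of control in IR20 and 0.707% of control in Dagad deshi. On the log2 scale the difference from control was -3.54 in IR20 and -6.59 in Dagad deshi, each with a standard error (SE) of 0.15. Of the 40094 probe sets tested, 21.9% were called lower in IR20 at 3 h and 47.3% in Dagad deshi. Other probe sets lay below BBD1 in this difference in 14 cases in IR20 and in 2 in Dagad deshi, those of LOC4334965 (-7.75) and LOC4343262 (-7.38), both named after their values were seen. A fall on this scale understates that of a low reading, since 16 was added to each value.

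From 3 h to 6 h the level increased in both cultivars. The return was larger in Dagad deshi, where the loss had been larger too. Both changes are taken from the same 3 h level, so a lower 3 h level enlarges both. The mean intensity at 6 h was 2.22 times that at 3 h in IR20 and 24.9 times in Dagad deshi. The log2 differences were 1.13 in IR20 and 4.11 in Dagad deshi (SE 0.15 each), where 10.9% of probe sets were called higher in IR20 and 5.33% in Dagad deshi, and 14.6% and 6.16% were called lower. Other probe sets had a higher difference than BBD1 in 843 cases in IR20 and in 6 in Dagad deshi, and 4 of the 6 were tied to 1 gene each. Named after their values were seen, these included LOC4330832, whose synonym is AMY1A, an alpha-amylase (6.08), and LOC4324982, whose synonym REP1 is that of a cysteine protease (4.21). Neither cultivar regained its control level, as the mean intensity at 6 h was 18.6% of control in IR20 and 17.6% in Dagad deshi.

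The difference between the cultivars' responses was 3.05 on the log2 scale at 3 h against control, IR20 minus Dagad deshi, with an SE of 0.21. From 3 h to 6 h it was -2.98 with the same SE. Over the whole span, 6 h against control, it was 0.07 with the same SE, and it ran between -0.05 without Dagad deshi control replicate 2 and 0.25 without replicate 1 of that group. These differences are built from the changes over time that chose BBD1, so no test was made of them. The cultivars thus differed in how low BBD1 read at 3 h, and their 6 h levels relative to their own controls were 18.6% in IR20 and 17.6% in Dagad deshi.

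**Figure D2:**
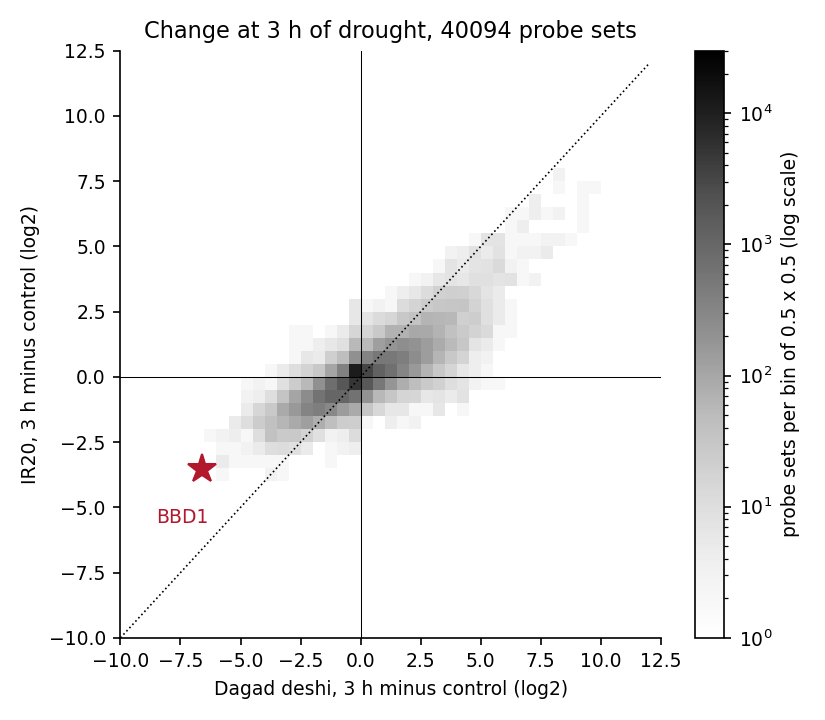
Change at 3 h of drought against control for the 40094 probe sets tested, Dagad deshi on the horizontal axis and IR20 on the vertical axis, both in log2, with the shade giving the number of probe sets in each bin on a log scale and the dotted line marking equal change. BBD1 (red star, -6.59 in Dagad deshi and -3.54 in IR20) lies at the lower left edge and above the dotted line.

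A shape of this kind, lower at 3 h than in control and higher at 6 h than at 3 h in both cultivars, was called for 136 probe sets, 0.339% of those tested. BBD1 is one of them by its choice. At 3 h, 35 of the 136 were called higher in IR20 and 26 lower, where 18.1% of all probe sets were called higher and 16.0% lower. No other of the 136 had a larger IR20 minus Dagad deshi difference at that time than BBD1.

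The difference between cultivars within a time was tested with limma over all 40094 probe sets, with Benjamini-Hochberg adjustment within each of 3 comparisons. The choice of BBD1 asked for a low 3 h level in both cultivars and for no order between them. The same arrays and values entered it, so the p-values are not from samples apart from the choice. The 3 h difference, 3.65, contains the difference of responses at 3 h, 3.05, which was left untested above. Its p-value is therefore a description of these arrays and no independent support. IR20 read higher than Dagad deshi at each time, with all 3 IR20 arrays above all 3 Dagad deshi arrays. The mean intensity in IR20 was 17.8 times that in Dagad deshi at 3 h, 1.50 times in controls and 1.59 times at 6 h.

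At 3 h, BBD1 read 585 to 670 in IR20 and 27.9 to 41.7 in Dagad deshi. The log2 difference was 3.65 (SE 0.15, adjusted p = 1.16e-10, limma), and 105 other probe sets had a higher one. In this comparison 18.1% of probe sets were called higher in IR20. At 6 h BBD1 read 1358 to 1390 in IR20 and 742 to 999 in Dagad deshi, a log2 difference of 0.67 (SE 0.15, adjusted p = 0.00336, limma), where 10.5% of probe sets were called higher in IR20. In controls it read 6755 to 8119 in IR20 and 3771 to 5689 in Dagad deshi, a log2 difference of 0.60 (SE 0.15, adjusted p = 0.00396, limma), where 17.2% were called higher in IR20. The control difference was no longer called when the fit held only the groups compared (adjusted p = 0.0806, limma). Over all 29 alternative settings, the 3 h and 6 h differences stayed above 0 and called, at 2.79 to 4.13 and 0.57 to 0.78. Many of these settings, such as leaving out an array of another group, could not change the estimate.

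**Figure D3:**
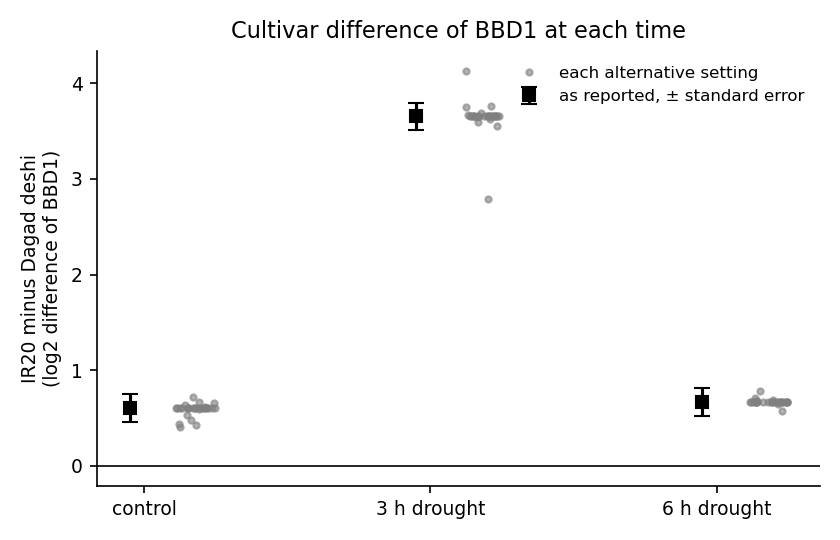
IR20 minus Dagad deshi difference of BBD1 in log2 at control, 3 h and 6 h, as reported (squares, with the standard error) and under each of 29 alternative settings (grey points). The 3 h difference of 3.65 stands apart from those of controls (0.60) and 6 h (0.67), and no setting took any of them to 0. Many settings, such as leaving out an array of another group, could not move an estimate.

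Other measures moved with the same groups. A 3'/5' index compares, for the cyclophilin, GAPDH and actin control probes, how brightly the 3' end of a transcript reads over its 5' end, as a log2 ratio averaged over the 3, and it rises when RNA is broken. It was 1.80 to 3.19 in the 12 drought arrays and 4.12 to 8.88 in the 6 control arrays, so it moved with every comparison of drought and control, and its part in them was not tested beyond the fit that follows. At 3 h it was 2.79 to 2.89 in IR20 and 1.80 to 2.14 in Dagad deshi. When the fit also held the index, the cultivar differences of BBD1 were 3.76 at 3 h, 0.71 at 6 h and 0.41 in controls (adjusted p = 0.0228 for controls, limma). Without the 2 control arrays of the highest index, Dagad deshi replicate 1 and IR20 replicate 2, the control difference was 0.48 (adjusted p = 0.0103, limma).

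**Figure D4:**
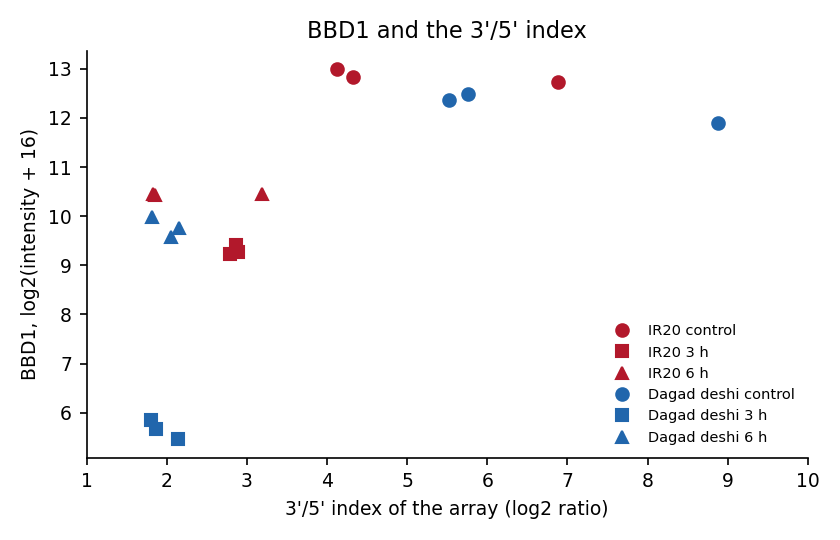
BBD1 level, log2 of the intensity plus 16, against the 3'/5' index of each array, a log2 ratio, for IR20 (red) and Dagad deshi (blue) as control (circles), at 3 h (squares) and at 6 h (triangles). Controls have both the highest index (4.12 to 8.88) and the highest BBD1, while among the drought arrays, at 1.80 to 3.19, BBD1 ranges from the lowest to intermediate levels.

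Markers of organs were read because a whole seedling holds shoot, root and what is left of the seed, and in such samples fewer cells of a type and less RNA per cell cannot be told apart. Of 3 measured root markers, 3 were called higher in IR20 at 3 h, 3 at 6 h and 2 in controls, where 18.1%, 10.5% and 17.2% of all probe sets were called higher at those times. NRT2.3, 1 of the 3, read low in every group, at 4.55 to 5.86 in mean log2 level. The summed intensity of the 3 at 3 h was 9419 to 9781 in IR20 and 3480 to 4159 in Dagad deshi. At 6 h it was 11274 to 13878 in IR20 and 3636 to 4076 in Dagad deshi, and in controls 6067 to 8993 in IR20 and 2884 to 3329 in Dagad deshi. LSI2, a silicon efflux transporter of roots, differed by 3.08 between the cultivars at 3 h (adjusted p = 2.81e-07, limma). LSI1, the silicon influx channel of roots, differed by 0.80 (adjusted p = 3.72e-05, limma). On the log2 scale LSI2 averaged 10.81 in IR20 controls, 11.88 at 3 h and 12.10 at 6 h, and in Dagad deshi 9.44, 8.80 and 8.92 at these times. At 3 h LSI2 thus rose by 1.07 in IR20 (adjusted p = 0.00416, limma), while in Dagad deshi it fell by 0.64 (adjusted p = 0.0402, limma). LSI1 went the other way in Dagad deshi, averaging 11.26 in controls and 11.72 at 3 h. Of the 3 root markers, 1 rose and 1 fell in Dagad deshi at 3 h, where 23.6% of all probe sets were called higher and 47.3% lower.

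The 3 shoot markers, led by the light-harvesting protein CAB2R and the Rubisco small subunit RBCS, summed to 64835 to 68122 at 3 h in IR20 and 66505 to 69915 in Dagad deshi. RBCS1, the last of the 3, read low in every group, at 4.61 to 4.81 in mean log2 level. None of the 3 shoot markers was called between the cultivars at 3 h. At 6 h they summed to 52386 to 63006 in IR20 and 40348 to 45099 in Dagad deshi, with 2 called higher in IR20, and in controls to 65661 to 76879 in IR20 and 76924 to 79964 in Dagad deshi, with 2 called lower in IR20. Over all probe sets 16.0% were called lower in IR20 at 3 h, 11.6% at 6 h and 35.9% in controls. The 6 endosperm genes summed to 215 to 386 over all groups, most of it from 1 glutelin probe set of GLUA2, and 1 of 5 tested was called lower in IR20 at 3 h. What part the organs had in the cultivar difference of BBD1 was not tested.

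The family holds 1 other gene on the array, BBD2 (LOC4345362), whose 3 probe sets disagreed. The probe set of the highest mean, of the type marked _x_at, can bind several transcripts. At 3 h it read 4562, 4709 and 4816 in IR20, against 7468, 6594 and 8196 in IR20 controls. In Dagad deshi it read 6364, 6801 and 6996 at 3 h, against 3296, 3977 and 4193 in controls. So on this probe set BBD2 fell by 0.65 in IR20 (adjusted p = 0.00023, limma) and rose by 0.82 in Dagad deshi (adjusted p = 1.38e-05, limma), with no overlap between drought and control in either cultivar. When the fit also held the 3'/5' index, the difference in Dagad deshi was 0.29 and no longer called (adjusted p = 0.101, limma). At 6 h it read 6041, 7267 and 7390 in IR20 and 9150, 7295 and 7952 in Dagad deshi. Against 3 h that was higher by 0.55 in IR20 (adjusted p = 0.00171, limma), and the difference in Dagad deshi, 0.27, did not pass the test (adjusted p = 0.159, limma), though it did with the index in the fit (0.28, adjusted p = 0.0142, limma).

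The second probe set, marked _s_at, gave changes at 3 h of -0.51 in IR20 and -0.58 in Dagad deshi, neither of which passed the test (adjusted p = 0.305 and 0.138, limma). The third read 5.40 to 7.39 on all arrays, near the lower end of the scale. Pearson's r with BBD1 over the 18 arrays was -0.18, 0.36 and 0.29 for these in turn. Neither brighter probe set of BBD2 had a level at 3 h as far under its control as BBD1 had in either cultivar.

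Likeness to BBD1 was measured as Pearson's r on log2 values over the 18 arrays, as a description, since arrays of a group share their condition and control arrays share a high 3'/5' index. Of 40093 other probe sets, 104 had r above 0.9, 16 above 0.95 and 101 below -0.9. Few symbols in the annotation are more than a number, 79 genes among those tested, and the rule took the 8 of them with the highest r and the 4 with the lowest. FEN1B, a flap endonuclease of DNA replication and repair, had the highest r, 0.97. Its mean log2 level reached 9.99 in IR20 controls, 9.39 at 3 h and 9.56 at 6 h, and in Dagad deshi 9.94, 8.53 and 9.26 at the same times. Its means followed the order of the times but over a range much smaller than that of BBD1. From 3 h to 6 h FEN1B differed by only 0.17 in IR20 and by 0.73 in Dagad deshi (SE 0.097 each). A second probe set of FEN1B had r = 0.84.

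Next came wsl3 (r = 0.88), wsl8 (0.81) and wsl6 (0.81), genes named for white-striped leaves when chloroplast development fails, and AL1 (0.79), named for an albino leaf. They too averaged less at 3 h than in controls in both cultivars. In IR20 none of the 4 averaged more at 6 h than at 3 h, while in Dagad deshi each did. AL1 averaged 10.53 in IR20 controls, 8.81 at 3 h and 7.09 at 6 h, and in Dagad deshi 10.75, 6.17 and 6.43 at these times. The wsl6 gene averaged 10.41, 8.81 and 7.53 in IR20 and 10.56, 6.50 and 6.75 in Dagad deshi at control, 3 h and 6 h. In IR20, where BBD1 read higher at 6 h than at 3 h, wsl3 averaged 8.60 at 6 h and 9.04 at 3 h, and wsl8 averaged 10.21 and 10.37. TOP6B, a subunit of DNA topoisomerase VI, had r = 0.79, PHR2, a regulator of the phosphate starvation response, 0.76, and BIP1, a chaperone of the endoplasmic reticulum, 0.76. A second probe set of PHR2 had r = -0.40. Over the 12 drought arrays alone, r was 0.96 for FEN1B but 0.47 for wsl6, 0.40 for AL1 and 0.20 for BIP1, so the likeness of those 3 rested mostly on controls against drought.

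The lowest r among these symbols were those of PP2C53, a protein phosphatase (-0.89), KIN7J, a kinesin (-0.89), MHZ4, which is needed for ABA synthesis (-0.86), and CWZF3, a zinc finger protein (-0.79). MHZ4 averaged 6.81 in IR20 controls, 9.39 at 3 h and 8.62 at 6 h, and in Dagad deshi 6.55, 9.70 and 9.002 at these times. It was at its highest in both cultivars when BBD1 was at its lowest, as the choice by low r brings about.

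Over all probe sets, those with the highest r belonged to LOC4339778 (0.98 with each of 2 probe sets and 0.34 with 1 more), LOC4333719 (0.98), LOC4344969 (0.98) and LOC4341188 (0.98), which the annotation describes by number only. LOC4333719 came nearest in range, with 11.48 in IR20 controls, 8.78 at 3 h and 9.57 at 6 h, and in Dagad deshi 11.57, 6.38 and 8.94 at these times. Genes named through a synonym, 2156 among those tested, were looked through after their values were seen. Of these PCL1, a transcription factor of the circadian clock, had r = 0.97. Over the drought arrays alone its r was 0.96. PCL1 averaged 13.50 in IR20 controls, 10.92 at 3 h and 10.84 at 6 h, and in Dagad deshi 13.62, 7.72 and 10.49 at these times. Like BBD1 it was lowest in Dagad deshi at 3 h, as the choice by high r brings about.

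EGY1, a chloroplast protease (0.95), the cyclin CYCD2-2 (0.91), the gamma tubulin TUBG2 (0.91) and NBS1, a protein of DNA break repair (0.91), followed in that order. The opposite end of the synonyms held VP1, a transcription factor of the ABA response (-0.96), the kinesin KIN14K (-0.95), the protein kinase CIPK5 (-0.94), IAA24 of the auxin response (-0.94), the heat shock factor HSFA2B (-0.94) and PRR73, a pseudo-response regulator of the clock (-0.94). VP1 averaged 4.67 in IR20 controls, 5.61 at 3 h and 5.29 at 6 h, and in Dagad deshi 4.71, 6.79 and 5.85 at these times, so it read low throughout.

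**Figure D5:**
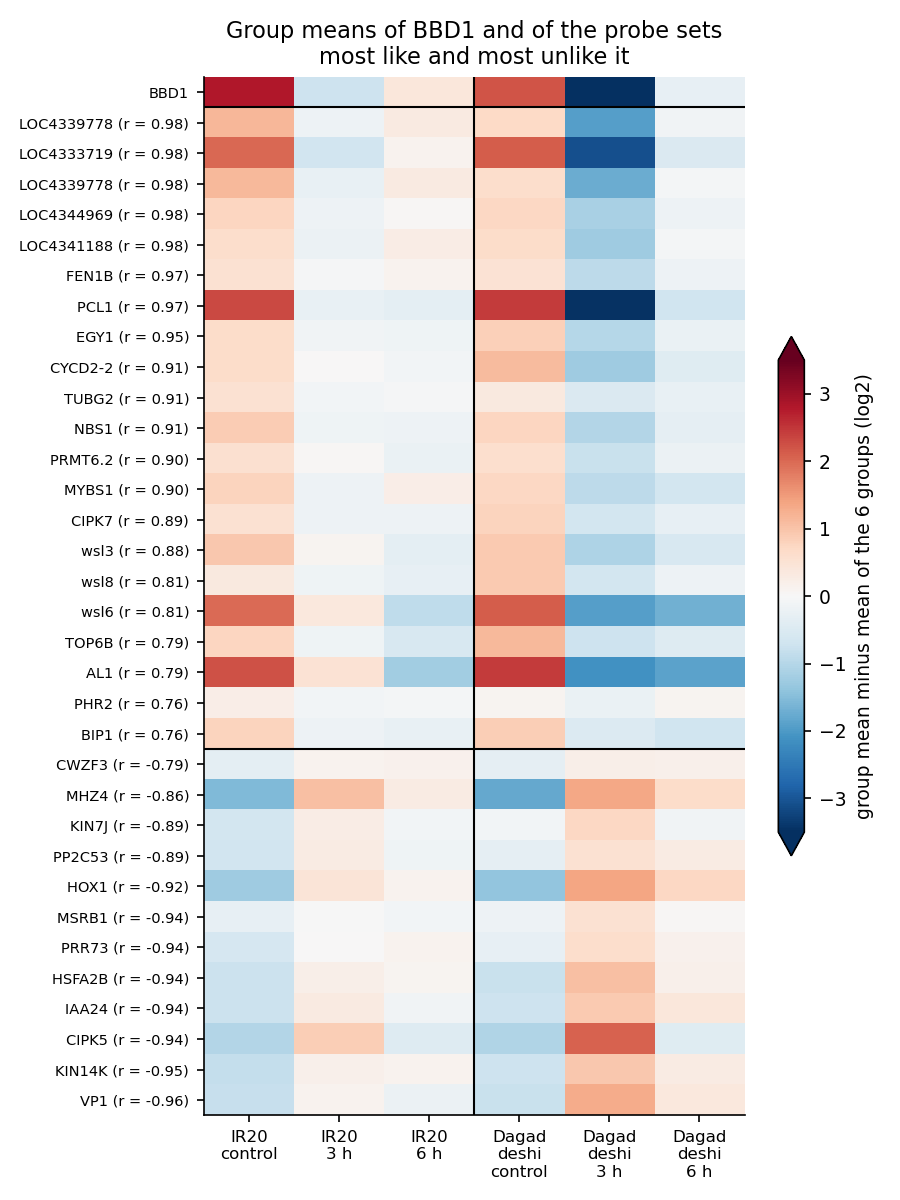
Group means of BBD1 (top row), of the described and highest probe sets with r above 0 (middle block) and of those with r below 0 (bottom block), each minus its own mean over the 6 groups, in log2, with IR20 left and Dagad deshi right and r over the 18 arrays beside each name. In the middle block the Dagad deshi 3 h column is low, as in BBD1 and as the choice by r brings about, and each row spans a smaller range than BBD1 (12.85 to 9.31 in IR20 and 12.25 to 5.66 in Dagad deshi), with PCL1, LOC4333719, wsl6 and AL1 nearest to it.

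Genes that belong to the known setting of BBD nucleases were read from lists. Of 5 ABA synthesis and receptor genes found by name, 3 had a probe set, and 2 rose at 3 h in IR20 and 3 in Dagad deshi, where 14.9% and 23.6% of all probe sets were called higher. ABA1, the zeaxanthin epoxidase of ABA synthesis, rose by 1.77 in IR20 and by 2.35 in Dagad deshi (adjusted p = 1.46e-10 and 2.07e-12, limma). TRAB1, a transcription factor of the ABA response that the synonym aba1 brought into the list though it is neither a synthesis gene nor a receptor, rose by 1.76 in IR20 and by 1.60 in Dagad deshi (adjusted p = 1.09e-08 and 9.63e-09, limma). The ABA receptor gene PYL11 rose by 0.67 in Dagad deshi (adjusted p = 2.24e-06, limma), while in IR20 its difference was -0.01 (adjusted p = 0.965, limma). Without TRAB1, a step added after seeing the data, 1 of 2 rose in IR20 and 2 of 2 in Dagad deshi, with median changes of 0.88 and 1.51, beside 0.003 and -0.03 over all probe sets. Between 3 h and 6 h, when BBD1 increased, PYL11 rose by 0.57 in IR20 and by 0.54 in Dagad deshi (adjusted p = 5.38e-05 and 0.000262, limma), and ABA1 and TRAB1 differed by at most 0.23 in either cultivar and did not pass the test.

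Of 12 basal defence genes 11 had a probe set, and at 3 h 6 rose and 3 fell in IR20, while 7 rose and 3 fell in Dagad deshi. Over all probe sets 14.9% were called higher and 21.9% lower in IR20, and 23.6% higher and 47.3% lower in Dagad deshi. The median change was 0.52 in IR20 and 0.70 in Dagad deshi. CERK1, a receptor kinase for chitin and peptidoglycan, rose by 1.20 in IR20 and by 1.94 in Dagad deshi (adjusted p = 1.68e-06 and 3.15e-09, limma). The NPR1-like genes of the list went both ways at 3 h. NH1, NH2 and NPR4 averaged more than in controls in both cultivars, while NPR5 and NH3 fell. NH1 averaged 8.12 in IR20 controls and 9.01 at 3 h, and in Dagad deshi 6.63 and 8.21. NPR5 fell by 1.44 in IR20 and by 2.32 in Dagad deshi (adjusted p = 1.63e-05 and 4.15e-08, limma), and NH3 fell by 1.00 and by 2.24 in the same order (adjusted p = 8.22e-06 and 5.00e-10, limma). These NH3 values are those of its probe set of the highest mean. Another NH3 probe set, marked _x_at, averaged 6.18 in IR20 controls and 6.45 at 3 h, and in Dagad deshi 6.42 and 6.505. The remaining NH3 probe sets averaged less at 3 h than in controls in both cultivars. PBZ1, a pathogenesis-related protein, rose by 4.29 in Dagad deshi (adjusted p = 6.72e-07, limma), where its control arrays varied with an SD of 1.33, and its difference in IR20 was -0.42 (adjusted p = 0.597, limma). Its control level was already high in IR20, at 13.42 against 9.93 in Dagad deshi, and at 3 h it averaged 13.00 in IR20 and 14.22 in Dagad deshi.

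No callose synthase or glucanase gene was found by name, so the callose step of the path was not analysed here. Of other nucleases the list found EXO1, an exonuclease of DNA repair, which read low, at 4.60 to 5.22 in mean log2 level. Its difference at 3 h was -0.50 in IR20, which did not pass the test (adjusted p = 0.0505, limma), and it fell by 0.49 in Dagad deshi (adjusted p = 0.0306, limma). The 8 clock genes, listed after the data were seen, had 7 with a probe set, of which 3 rose and 1 fell at 3 h in IR20, while 4 rose and 3 fell in Dagad deshi. The shares over all probe sets were 14.9% higher and 21.9% lower in IR20, and 23.6% higher and 47.3% lower in Dagad deshi.

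The neighbours of BBD1 on its chromosome were read in the order of the RefSeq annotation. LOC4326931, the gene next to it on one side, had 2 probe sets with r of -0.73 and -0.80. Its first probe set averaged 4.86 in IR20 controls, 7.79 at 3 h and 7.77 at 6 h, and in Dagad deshi 5.03, 7.70 and 7.96 at these times. Its second averaged 5.03, 8.28 and 7.56 in IR20 and 4.97, 8.15 and 8.04 in Dagad deshi at control, 3 h and 6 h. Both were thus near the lower end of the scale where BBD1 was at its highest, and at 6 h the second was lower than at 3 h in IR20. The genes 2 places away, LOC4326930 and LOC4326934, had r of 0.03 and of 0.38 and 0.63, and no probe set was tied to LOC4326933.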

How the data were processed

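The authors of the series labelled total RNA of whole seedlings by a 3' method, hybridized it to Affymetrix rice arrays and deposited linear intensities, 1 for each of 57381 probe sets. The submitters' processing notes name GCOS, and the summarization and normalization are not given in the sources used here.

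Each intensity was raised by 16 before its log2 was taken. After 104 control probe sets were dropped (19 of reference gene families stayed), the 40094 probe sets above the 30th percentile of mean log2 were tested in R 4.3.3 with limma 3.58.1 (functions lmFit, contrasts.fit, eBayes with a trend, 6 group means, 18 arrays, no other term, Benjamini-Hochberg adjusted p under 0.05 called). The fit was tested on simulated data. Probe sets were tied to genes by the platform annotation and named through RefSeq ASM3414082v1. Several probe sets of a gene were read by that of the highest mean. The rule named 8 genes of the highest and 4 of the lowest r, the BBD family, and up to 4 members per list with the largest mean change at 3 h. BBD1, the lists, tests and alternatives were chosen with earlier results of these data known. Alternatives were other scalings, pseudocounts of 1 and 64, other filters, a variance prior with no trend, the replicate number as a block, fits of the compared groups alone, the 3'/5' index, and leaving out arrays.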

Additional observations from a re-analysis of the deposited data

Results flagged for a closer look

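BBD2 responded differently in the cultivars at 3 h of drought on its probe set of the highest mean. The change from control was -0.65 in IR20 and 0.82 in Dagad deshi. The difference between these changes was -1.47 (SE 0.16), which passed the test of the interaction (adjusted p = 5.12e-06, limma). So did many others, as 12628 of the 40094 probe sets tested were called above 0 in this interaction and 6700 below 0. When the fit also held the 3'/5' index, the Dagad deshi change was 0.29 and not called (adjusted p = 0.101, limma). All 3 IR20 arrays at 3 h read below all 3 IR20 controls, and all 3 Dagad deshi arrays at 3 h read above all 3 Dagad deshi controls. A second bright probe set of BBD2 gave an interaction of 0.07 (SE 0.48, adjusted p = 0.915, limma). The probe sets of BBD2 therefore did not give 1 answer, and which of them reads BBD2 alone was not tested.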

How the results depend on the processing

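The 3 h and 6 h cultivar differences of BBD1 were called under all 29 alternatives, and the control difference under 28. Many of the alternatives could not change an estimate, among them leaving out an array of another group, the replicate block and fits of the compared groups alone. The calls rest on the arrays that chose BBD1 and are no independent support. The control difference was 0.60 but not called when only the groups compared were fitted (adjusted p = 0.0806, limma), and was 0.42 without Dagad deshi control replicate 1 and 0.72 without Dagad deshi control replicate 2, called in both.

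The size of the changes over time moved with 2 choices. With pseudocounts of 1 and 64, the Dagad deshi 3 h change was -7.10 and -5.64, its change from 3 h to 6 h 4.60 and 3.22, and the cultivar difference of these responses 3.53 and 2.19 at 3 h and -3.45 and -2.15 from 3 h to 6 h. When the fit also held the 3'/5' index, the changes from control in IR20 were -3.81 at 3 h and -2.75 at 6 h, those in Dagad deshi -7.17 at 3 h and -3.05 at 6 h, and the differences of responses 3.36 at 3 h and 0.30 at 6 h. Among probe sets as a whole, 21301 were called between the control groups, against 35888 with no filter, 10978 with a 60th percentile filter and 4158 in the fit on only the groups compared. In Dagad deshi at 3 h 28441 were called, against 18231 with the 60th percentile filter and 15504 with the index, and from 3 h to 6 h 4604, against 6949 without the 2 control arrays of the highest index. Centring each array on its median changed the split at 3 h in Dagad deshi to 13448 higher and 12242 lower, from 9464 and 18977, and that between controls to 9290 higher and 6955 lower in IR20, from 6914 and 14387. Probe sets with r above 0.9 numbered 104 over arrays, 359 over the 6 group means and 1 over deviations from them.

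Of the list genes, PYL11 in IR20 at 3 h lay between -0.055 and 0.061 when single arrays were left out, and was above 0 at 0.061, 0.015 and 0.009 without 1 of 3 IR20 arrays each, and PBZ1 in IR20 to 0.27 with the index. PBZ1 in IR20 was called without Dagad deshi control replicate 1 (-0.42), and the second BBD2 probe set was called at 3 h in Dagad deshi without that array (-0.87) and in IR20 without IR20 control replicate 3 (-0.93). The causes were not tested.

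The replicate numbers did not pair the arrays, since 5 of 27 same-numbered pairs of arrays correlated over 0.1 and 5 of 18 arrays correlated best with their own number. The replicate number as a block cannot change the BBD1 differences (3.65 at 3 h), since every group holds the same replicate numbers. With this block the adjusted p of the 3 h cultivar difference was 3.66e-09 (limma), and 28192 probe sets were called in Dagad deshi at 3 h. No call of BBD1 or of the brighter probe sets of BBD2 changed. At 3 h the calls of ABA1, TRAB1, PYL11, PBZ1, NPR5, NH3 and CERK1 also stayed.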

Other observations

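Clock genes other than PCL1 also moved at 3 h of drought, when no control of the same hour was taken. Of the 7 with a probe set, PCL1 among them, 3 rose and 1 fell in IR20, and 4 rose and 3 fell in Dagad deshi. Over all probe sets 14.9% were called higher and 21.9% lower in IR20 at 3 h, and 23.6% and 47.3% in Dagad deshi. CCA1, a transcription factor of the morning loop of the clock, rose by 2.33 in IR20 and by 2.49 in Dagad deshi (adjusted p = 2.11e-07 and 3.42e-08, limma). PRR1, a pseudo-response regulator of the evening, fell by 1.93 in Dagad deshi (adjusted p = 7.05e-11, limma), and its difference in IR20 was -0.20 (adjusted p = 0.0899, limma). PRR1 averaged 8.50 in Dagad deshi at 3 h and 10.10 at 6 h. The hour of harvest was not stated, so drought and the time of day cannot be told apart for these genes.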
